A study of Mus musculus with 34 samples.

Results

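Dividing tumour cells were the epithelial cells of MMTV-Wnt1 mammary tumours that held RNA of Mki67 and Top2a. They were chosen from measured values. A cell needed at least 500 UMIs (unique molecular identifiers, each standing for 1 captured RNA molecule), at least 200 genes and under 20% mitochondrial UMIs. It also needed at least 1 UMI of Epcam, at least 5 UMIs of Krt8 and Krt18 per 10000, no UMI of the pan-leukocyte gene Ptprc, and at least 3 UMIs of Mki67 and Top2a together. Of 46386 deposited cells, 43197 passed the filters on quality, 5717 were tumour cells by the epithelial markers and 937 of these were dividing. Of the 937 dividing cells, 796 came from 10 libraries of magnetically sorted cells and 141 from a pooled table of unsorted tumour cells. Tumour cells without a UMI of either division gene, 4045 in all, are called resting below, a name that says only that these 2 RNAs were not seen.

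The tumours arise from the Wnt1 oncogene under the MMTV promoter, which is active in mammary epithelium, and were transplanted into C57BL6j mice. Doxorubicin, an anthracycline drug, was given as 5 doses of 4 mg/kg and the tumours were collected 48 h after the last dose. In that group there were 2 libraries of CD45-sorted cells and 1 of CD4/8-sorted cells, against the same number of untreated libraries. The remaining 4 libraries were CD4/8-sorted and came from mice that had doxorubicin and, from 48 h later, 3 doses of antibody 72 h apart, with harvest 24 h after the last. The arms were anti-PD1 (200 ug with 200 ug IgG), anti-CTLA4 (200 ug with 200 ug IgG), both antibodies (200 ug each) and IgG alone (400 ug), so every antibody arm carried the doxorubicin treatment too. The labels do not say whether libraries came from separate animals, so p-values measure the spread between libraries, which may be technical. The sorts were meant to keep immune cells, and tumour cells made up 3.36 to 19.1% of the cells in a sorted library. The members in the sorted libraries are therefore cells carried through a sort, and a share of them is a share of these tumour cells. The unsorted tumours of the pooled table were untreated or 48 h after the same doxorubicin course. They grew in female wild-type C57BL6/j mice of 6 to 8 weeks, and no label ties a barcode set to either tumour.

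A cell that copies its DNA and enters mitosis makes a set of RNAs that resting cells lack. Mki67 encodes a protein that coats mitotic chromosomes, and Top2a encodes topoisomerase II alpha, which untangles DNA strands and is the enzyme that doxorubicin traps on DNA. The breaks that follow activate the transcription factor p53, whose target Cdkn1a encodes p21, an inhibitor of the cyclin-dependent kinases that drive the cycle.

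The epithelial label held in these cells beyond the genes that chose them. Genes of the luminal list summed to 132 to 241 UMIs per 10000 in the dividing cells of the 10 libraries and the 2 barcode sets of the pooled table, against 1.57 to 8.88 in the Ptprc-positive cells there. Marker genes of T cells summed to 0 to 0.41 UMIs per 10000 in the dividing cells, against 8.35 to 73.5 in Ptprc-positive cells. Macrophage and monocyte markers summed to 0.16 to 0.86 and neutrophil markers to 0.11 to 2.17 per 10000 in dividing cells. At least 1 UMI of 8 T cell or myeloid genes was seen in 56.0 to 100% of the dividing cells of a sorted library, against 35.8 to 61.0% of its resting cells. The dividing cells were also the deeper ones. Their median was 27731 to 54027 UMIs after doxorubicin and 51233.5 to 71063 in untreated libraries, and 28.0 to 80.0% of them held over 40000 UMIs. No doublet caller was run, and the part of doublets or free RNA in the values below was not tested beyond the alternatives given.

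Next to the threshold, 96 cells of the sorted libraries held exactly 3 UMIs of the 2 genes, and 151 tumour cells just outside it held 2. The 54 genes of the G2/M list, which leaves out Mki67 and Top2a, had a median of 24.1 UMIs per 10000 in the cells with 3 UMIs and 16.7 in those with 2. The median was 49.6 over all dividing cells and 12.6 over resting cells. The edge of the set was thus gradual.

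Dividing cells made up a smaller share of the tumour cells 48 h after doxorubicin than in untreated tumours, in every library. In the CD45-sorted libraries after doxorubicin the share was 4.41% (3 of 68 cells, exact 95% interval 0.919 to 12.4%) and 10.9% (25 of 230, 7.16 to 15.6%), and in the CD4/8-sorted library it was 2.53% (36 of 1425, 1.78 to 3.48%). In untreated tumours it was 35.2% (136 of 386, 30.5 to 40.2%) and 33.3% (50 of 150, 25.9 to 41.5%) in the CD45-sorted libraries and 32.4% (120 of 370, 27.7 to 37.5%) in the CD4/8-sorted library. The 3 untreated libraries lay close together, the doxorubicin libraries were more spread out, and the groups did not overlap. The mean was 5.94% ± 4.38 after doxorubicin and 33.7% ± 1.43 in untreated libraries (SD, n = 3 each), a difference of -27.7 points. An exact two-sided permutation of the labels within each kind of sort gave p = 0.167, the smallest that its 12 arrangements allow, so the design could not reach 0.05.

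A threshold in raw UMIs is easier to pass in a deep cell. Each cell of at least 3000 UMIs was therefore thinned to that depth and called dividing with at least 1 UMI of the pair. Cells under 3000 UMIs were left out, here and in each thinned value below. The second untreated CD45-sorted library lost most by this, with 94 of its 150 tumour cells kept. The share was then 3.28, 9.09 and 3.96% after doxorubicin (mean 5.44% ± 3.18, SD, n = 3), against 26.8, 29.8 and 21.7% in untreated libraries (mean 26.1% ± 4.08, SD, n = 3). The groups stayed apart, with a difference of -20.7 points. A call that used the G2/M list alone gave a mean of 17.1% after doxorubicin and 44.0% in untreated tumours. With cells over 40000 UMIs left out the difference was -10.6 points, the smallest of the definitions tried, and the groups nearly touched. The second untreated CD45-sorted library was then at 10.4% of 96 cells and the second doxorubicin CD45-sorted library at 9.68% of 186.

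**Figure D1:**
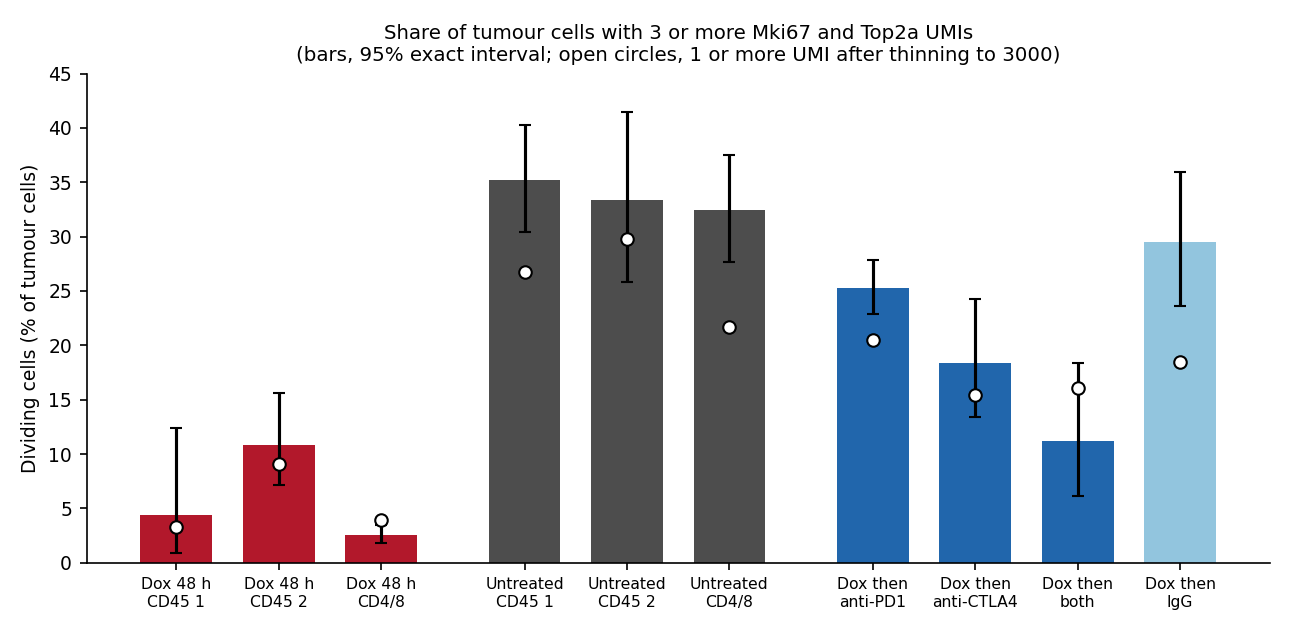
Share of tumour cells that were dividing (percent, vertical axis) in each sorted library, with exact 95% binomial intervals; open circles give the share with at least 1 UMI after thinning to 3000 UMIs. The 3 doxorubicin 48 h bars lie between 2.53 and 10.9%, the 3 untreated bars between 32.4 and 35.2%, and the 4 later arms from 11.2 to 29.5%.

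In the later arms the share was higher than in the CD4/8-sorted library at 48 h. It was 25.3% with anti-PD1 (308 of 1217 cells, interval 22.9 to 27.8%), 18.4% with anti-CTLA4 (39 of 212, 13.4 to 24.3%), 11.2% with both antibodies (13 of 116, 6.1 to 18.4%) and 29.5% with IgG (66 of 224, 23.6 to 35.9%). All 4 lay above the 2.53% of the CD4/8-sorted library at 48 h, by 8.68 points with both antibodies (interval 4.04 to 15.7) to 26.9 points with IgG (21.3 to 33.3). The arm with both antibodies was level with the 10.9% of the second CD45-sorted library at 48 h. With cells over 40000 UMIs left out, both antibodies gave 3.33% and anti-CTLA4 9.09%. That was below the 9.68% of this CD45-sorted library and above the 1.14% of the CD4/8-sorted one. Each arm is 1 library, so there is no replicate check. The intervals cover counting error only, and the arms were also harvested later than the 48 h library, so time and antibody cannot be told apart there.

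Against IgG, harvested at the same time, the share differed by -4.16 points with anti-PD1 (interval -10.9 to 1.97), by -11.1 points with anti-CTLA4 (-18.9 to -3.04) and by -18.3 points with both antibodies (-26.0 to -9.28). After thinning to 3000 UMIs, the shares were 20.5, 15.4 and 16% with anti-PD1, anti-CTLA4 and both antibodies, against 18.5% with IgG. With at least 2 UMIs after thinning they were 10.7, 7.98 and 6.60%, against 10.9% with IgG, which is the order of the unthinned shares. The order of the arms was thus not the same at both thresholds, and the dividing cells of the IgG library were the deepest of the 10 libraries.

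The T cells of the same libraries gave a reference for division in another cell type, one chosen after the shares of tumour cells were known. Dividing cells, by the same 3 UMIs, made up 10.9, 9.77 and 10.8% of T cells after doxorubicin (mean 10.5% ± 0.596, SD, n = 3), against 22.8, 25.1 and 15.6% in untreated libraries (mean 21.2% ± 4.99, SD, n = 3). All untreated libraries were above all doxorubicin libraries here as well, by 10.7 points on average. Thinned to 3000 UMIs, the share of dividing T cells was 17.1 and 16.4% in the CD45-sorted libraries after doxorubicin, against 29.0 and 24.6% untreated, and 21.4% in the CD4/8-sorted library after doxorubicin, against 21.2% untreated. At equal depth the difference thus remained in the CD45-sorted libraries and not in the CD4/8-sorted pair. The difference in tumour cells exceeded that in T cells by 17.0 points (exact two-sided permutation, p = 0.167, again the smallest possible).

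The genes most raised in dividing over resting cells were those of the cell cycle, of S phase as well as mitosis. Because the rule selected the cells on 2 genes of this programme, the values are a description with no test. Over 9 sorted libraries with enough cells and the 2 barcode sets, levels were compared as the log2 ratio of CPM plus 10, where CPM scales a count to a library of equal depth. Ube2c, whose product directs the anaphase-promoting complex, was highest, with a mean of 329 CPM in dividing cells and 10.7 CPM in resting cells, and a median log2 ratio of 4.37 (2.14 to 5.60 across the 11). Birc5, a subunit of the chromosomal passenger complex, followed at 3.81, then Pclaf, a partner of the replication clamp, at 3.75, and Cdk1, the mitotic kinase, at 3.44. Cenpf and Tpx2, of the kinetochore and the spindle, were at 3.33 and 3.18. Of the 54 G2/M genes, 50 were higher in dividing cells in every library or set, and so were 38 of 42 S phase genes, beside 1454 of all 10421 genes compared. G2/M genes took 68.6 to 73.8% of the UMIs of both lists in the sorted libraries other than the one with both antibodies, where they took 84.6% from 13 cells. In resting cells they took a share not far below, 62.9 to 68.4% in the former libraries and 70.6% in the latter.

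Genes lower in the dividing cells included the growth factor-binding protein Igfbp5, at 842 CPM in dividing and 3373 CPM in resting cells (log2 ratio -2.10). Ly6d was at -1.46, Nupr1, a stress-induced chromatin protein, at -1.29 and Btg2, an antiproliferative p53 target, at -1.24. Of the 24 p53 targets, 0 were higher in every library or set and 5 were lower in every one, beside 1216 lower of all 10421 genes. Among the 16 AP-1 immediate early genes 7 were lower in every one.

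**Figure D2:**
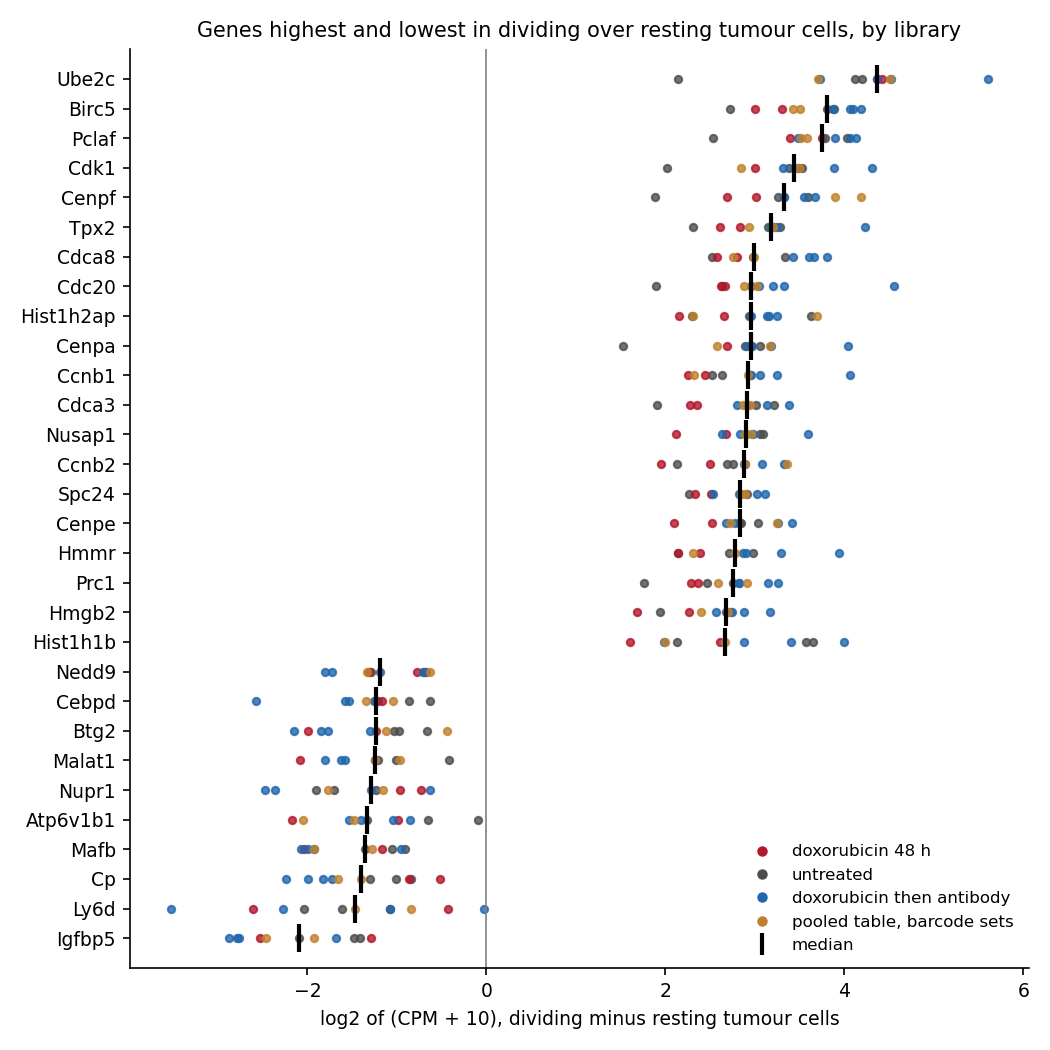
Log2 ratio of CPM plus 10 in dividing over resting tumour cells (horizontal axis) for the 20 most raised and 10 most lowered genes, with 1 point per library or barcode set, coloured by treatment, and the median marked. Ube2c leads at a median of 4.37 and Igfbp5 is lowest at -2.10.

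Promoters of the leading genes shared short sequences that the choice of cells did not use. Genes of mitosis are known to be held silent in resting cells by the DREAM complex, which binds a cell cycle homology element with the core TTTGAA, often near CCAAT boxes bound by NF-Y. In the RefSeq promoters of GRCm38.p6, taken from 250 bases before to 50 after each start, 16 of the 20 leading genes had an entry. TTTGAA, or TTCAAA for the other strand, was present in 11 of the 16 (68.8%), in 32 of 47 G2/M genes (68.1%) and in 6 of 30 S phase genes (20%), beside 5466 of 27025 genes overall (20.2%). CCAAT on either strand was present in 14 of the 16 (87.5%) and in 41.1% of all genes. It was also in 21 of 30 S phase genes (70%) and in 8 of 13 p53 targets that rose after doxorubicin (61.5%). Both motifs together were present in 68.8% of the 16, 13.3% of the S phase genes and 7.97% of all. These motifs were picked after the leading genes were known, and a match is no proof of a bound site. The promoters of Ube2c (chr2:164769679-164769978, plus strand), Cdk1 (chr10:69352863-69353162, minus strand) and Cdc20, an activator of the anaphase-promoting complex (chr4:118437294-118437593, minus strand), show the element, which is in capitals, close to the start.
Ube2c: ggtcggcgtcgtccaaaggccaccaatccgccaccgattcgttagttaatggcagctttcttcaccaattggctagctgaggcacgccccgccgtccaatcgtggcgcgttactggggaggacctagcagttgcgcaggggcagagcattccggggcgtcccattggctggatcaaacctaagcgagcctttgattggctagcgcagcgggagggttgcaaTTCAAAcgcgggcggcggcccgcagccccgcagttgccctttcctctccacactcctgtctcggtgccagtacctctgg
Cdk1: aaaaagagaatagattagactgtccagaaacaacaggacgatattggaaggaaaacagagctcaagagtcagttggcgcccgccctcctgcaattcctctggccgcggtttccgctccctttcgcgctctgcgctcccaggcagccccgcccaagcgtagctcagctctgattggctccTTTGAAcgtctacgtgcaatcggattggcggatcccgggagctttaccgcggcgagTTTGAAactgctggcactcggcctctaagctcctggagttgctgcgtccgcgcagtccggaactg
Cdc20: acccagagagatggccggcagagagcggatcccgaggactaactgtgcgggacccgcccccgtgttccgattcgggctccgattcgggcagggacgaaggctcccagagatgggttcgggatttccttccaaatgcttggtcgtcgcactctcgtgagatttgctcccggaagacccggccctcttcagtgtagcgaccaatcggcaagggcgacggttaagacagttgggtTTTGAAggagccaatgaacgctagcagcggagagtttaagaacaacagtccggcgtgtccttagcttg

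The tumour cells called dividing after doxorubicin held more RNA of p53 target genes than those of untreated tumours. Whether these cells went on to divide, and whether p53 was active in them, was not tested. Counts were summed over the dividing cells of each library and tested with edgeR's quasi-likelihood test, with the kind of sort as a covariate. The first doxorubicin CD45-sorted library had 3 such cells, under the minimum of 10, and was left out of the fit, so 2 doxorubicin libraries (1617814 and 2195263 UMIs) were set against 3 untreated ones (4501517 to 9104790 UMIs). Its values are given first in each list below but had no part in a test. Of 11678 genes, 188 (1.61%) passed an adjusted p of 0.05 after Benjamini-Hochberg adjustment, 140 of them higher (1.2%) and 48 lower (0.411%) after doxorubicin. Of the 24 p53 targets, 16 rose and 0 fell, with a median log2 change of 1.60, beside a median of 0.01 over all genes. The second doxorubicin CD45-sorted library decided much of these counts, since without it 6 genes and 2 p53 targets were called. Without the untreated CD4/8-sorted library 75 genes and 7 p53 targets were called, without the doxorubicin CD4/8-sorted library 88 and 8, and without the second untreated CD45-sorted library 449 and 18. Without cells that held a T cell or myeloid UMI 103 genes and 5 p53 targets were called, and the median of the p53 list stayed between 1.26 and 1.88 in every one of these fits.

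Cdkn1a was at 1297, 425 and 800 CPM in the dividing cells after doxorubicin, against 78.8, 70.2 and 38.0 CPM in those of untreated tumours. All doxorubicin libraries were above all untreated ones. Cdkn1a rose by 3.30 on the log2 scale (SE 0.440, edgeR adjusted p = 0.0253). Gdf15, a stress cytokine of the TGF-beta family, was at 295, 100 and 122 CPM after doxorubicin, against 13.5, 10.2 and 6.59 CPM untreated, again without overlap, and rose by 3.49 (SE 0.310, edgeR adjusted p = 0.00466). Ccng1, which encodes cyclin G1, was at 182, 151 and 112 CPM after doxorubicin, against 23.2, 14.9 and 12.4 CPM untreated, and rose by 2.99 (SE 0.247, edgeR adjusted p = 0.00358). These 3 genes each lay several-fold higher in every doxorubicin library.

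Other members of the list followed, and they differ in what they do. Mdm2, the ubiquitin ligase that turns p53 over, was at 323, 93.3 and 118 CPM after doxorubicin, against 42.6, 43.8 and 30.0 CPM untreated, with a log2 change of 1.44 (SE 0.250, edgeR adjusted p = 0.0423). Bax, which opens the mitochondrial membrane in apoptosis, was at 231, 412 and 389 CPM after doxorubicin, against 129, 102 and 121 CPM untreated. Zmat3, which encodes an RNA-binding protein, was at 42.1, 69.9 and 41.0 CPM after doxorubicin, against 6.93, 5.33 and 4.61 CPM untreated. None of these 3 overlapped between the groups. Eda2r, a receptor gene, had 14, 25.3 and 18.2 CPM after doxorubicin, against 1.32, 1.11 and 0.22 CPM untreated, a log2 change of 4.82. These values rested on 2, 41 and 40 UMIs after doxorubicin and on 12, 5 and 2 UMIs untreated. Btg2 did not pass (log2 change 0.06, edgeR adjusted p = 0.968).

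A promoter entry of Cdkn1a (chr17:29090729-29091028, plus strand, RefSeq, GRCm38.p6) is shown because this p53 target was also followed cell by cell. It holds 2 CATG quartets 6 bases apart, in capitals, 48 bases before the start of this entry. Other starts of the gene are not shown, and whether this start is the main one was not tested. Each quartet matches the core of the decamer that p53 is known to bind, so the pattern marks the cores of adjacent decamers. It reads the same way on both strands, and was chosen after a stricter form had found too few matches. It was present in 1 of 13 p53 targets that rose and had a promoter entry (7.69%) and in 225 promoters of 27025 genes (0.833%).
Cdkn1a: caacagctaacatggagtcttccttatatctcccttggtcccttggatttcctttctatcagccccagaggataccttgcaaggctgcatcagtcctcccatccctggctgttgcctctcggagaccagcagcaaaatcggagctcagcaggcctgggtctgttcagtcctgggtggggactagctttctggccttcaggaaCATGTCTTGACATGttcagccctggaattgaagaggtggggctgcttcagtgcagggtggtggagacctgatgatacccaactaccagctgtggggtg

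Cdkn1a was also read cell by cell, with each cell of at least 3000 UMIs thinned to that depth and the others left out. In the second untreated CD45-sorted library this kept 30 of 78 resting cells. At least 1 UMI of Cdkn1a was seen in 2 of 3, 14 of 25 and 33 of 36 dividing cells after doxorubicin (66.7, 56.0 and 91.7%), against 25 of 134, 7 of 49 and 11 of 119 in untreated libraries (18.7, 14.3 and 9.24%). The resting cells of the same libraries gave 75, 58.8 and 80.3% after doxorubicin and 19.2, 20 and 15.5% untreated. After doxorubicin most cells with Mki67 and Top2a RNA thus held Cdkn1a RNA too, in a share close to that of resting cells. In the later arms the share of dividing cells with Cdkn1a was 44.1% with anti-PD1, 42.1% with anti-CTLA4, 30.8% with both antibodies and 34.8% with IgG, against 64.3, 63.7, 53.2 and 49.6% of the resting cells there. Ptprc-positive cells, read as a level, had 1271, 1106 and 257 CPM of Cdkn1a after doxorubicin and 487, 473 and 105 CPM untreated, and the part of free RNA from them was not tested.

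**Figure D3:**
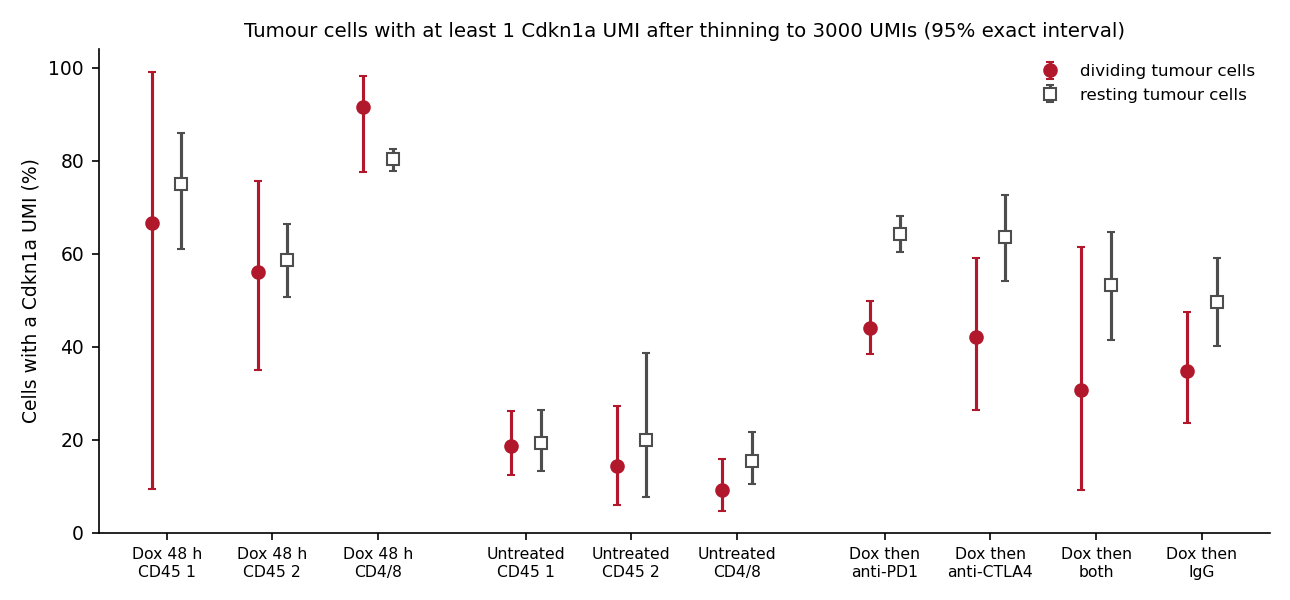
Share of cells with at least 1 Cdkn1a UMI (percent, vertical axis) after thinning to 3000 UMIs, for dividing and resting tumour cells of each sorted library, with exact 95% intervals. Dividing cells lie between 56.0 and 91.7% in the doxorubicin 48 h libraries and between 9.24 and 18.7% in the untreated ones.

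The p53 list as a whole summed to 45.8, 28.0 and 32.4 UMIs per 10000 in dividing cells after doxorubicin, against 12.9, 13.3 and 9.17 untreated. In the later arms it was 15.5 with anti-PD1, 16.6 with anti-CTLA4, 17.3 with both antibodies and 15.1 with IgG. All 4 arms lay between the untreated and the 48 h libraries. Resting cells gave 40.1, 37.1 and 42.3 per 10000 after doxorubicin and 17.2, 18.3 and 13.1 untreated. In resting cells of the fitted libraries 10 of the 24 genes rose, with a median log2 change of 1.26, beside 125 of 11661 genes called (1.07%), 92 up (0.789%) and 33 down (0.283%). The treatment change differed between dividing and resting cells for 0 of the 24 by edgeR's quasi-likelihood test (4 at an unadjusted p of 0.05), and DESeq2 gave an adjusted p for 4 of them, with 0 called.

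Genes of cholesterol synthesis were lower in dividing cells after doxorubicin. Of the 20 measured, 6 fell and 0 rose, beside 0.411% of all genes tested that fell and 1.2% that rose. All 20 had a log2 change below 0, and their median was -1.13. Fdps, which makes farnesyl diphosphate, was at 49.1, 54.4 and 45.1 CPM after doxorubicin, against 166, 175 and 190 CPM untreated. The groups lay far apart (log2 change -1.89, SE 0.212, edgeR adjusted p = 0.0102). Idi1, which interconverts the isoprene units that Fdps joins, was at 21.0, 26.0 and 15.0 CPM after doxorubicin, against 53.7, 64.6 and 55.6 CPM untreated, again without overlap (log2 change -1.54, edgeR adjusted p = 0.0365). Hmgcs1 and Cyp51 also fell.

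In the later arms Fdps stood at 205, 300, 254 and 244 CPM with anti-PD1, anti-CTLA4, both antibodies and IgG, at or above every untreated library. In resting cells it was at 47.0, 39.9 and 39.1 CPM after doxorubicin and 54.4, 71.8 and 75.2 CPM untreated, a change that did not pass (log2 change -0.99, edgeR adjusted p = 0.0664). The list's median change in resting cells was -0.29, with 0 of 20 called. The difference between dividing and resting cells did not pass for Fdps (log2 difference -0.93, edgeR adjusted p = 0.245) or for any other gene of the list, of which 11 had an unadjusted p under 0.05 and 0 were given an adjusted p by DESeq2. The count of 6 was 0 without the second doxorubicin CD45-sorted library, 0 without the untreated CD4/8-sorted library, 1 without the doxorubicin CD4/8-sorted library, 2 without the first untreated CD45-sorted library, 1 without cells holding a T cell or myeloid UMI and 0 with cells over 40000 UMIs left out, while the median stayed between -0.97 and -1.69.

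**Figure D4:**
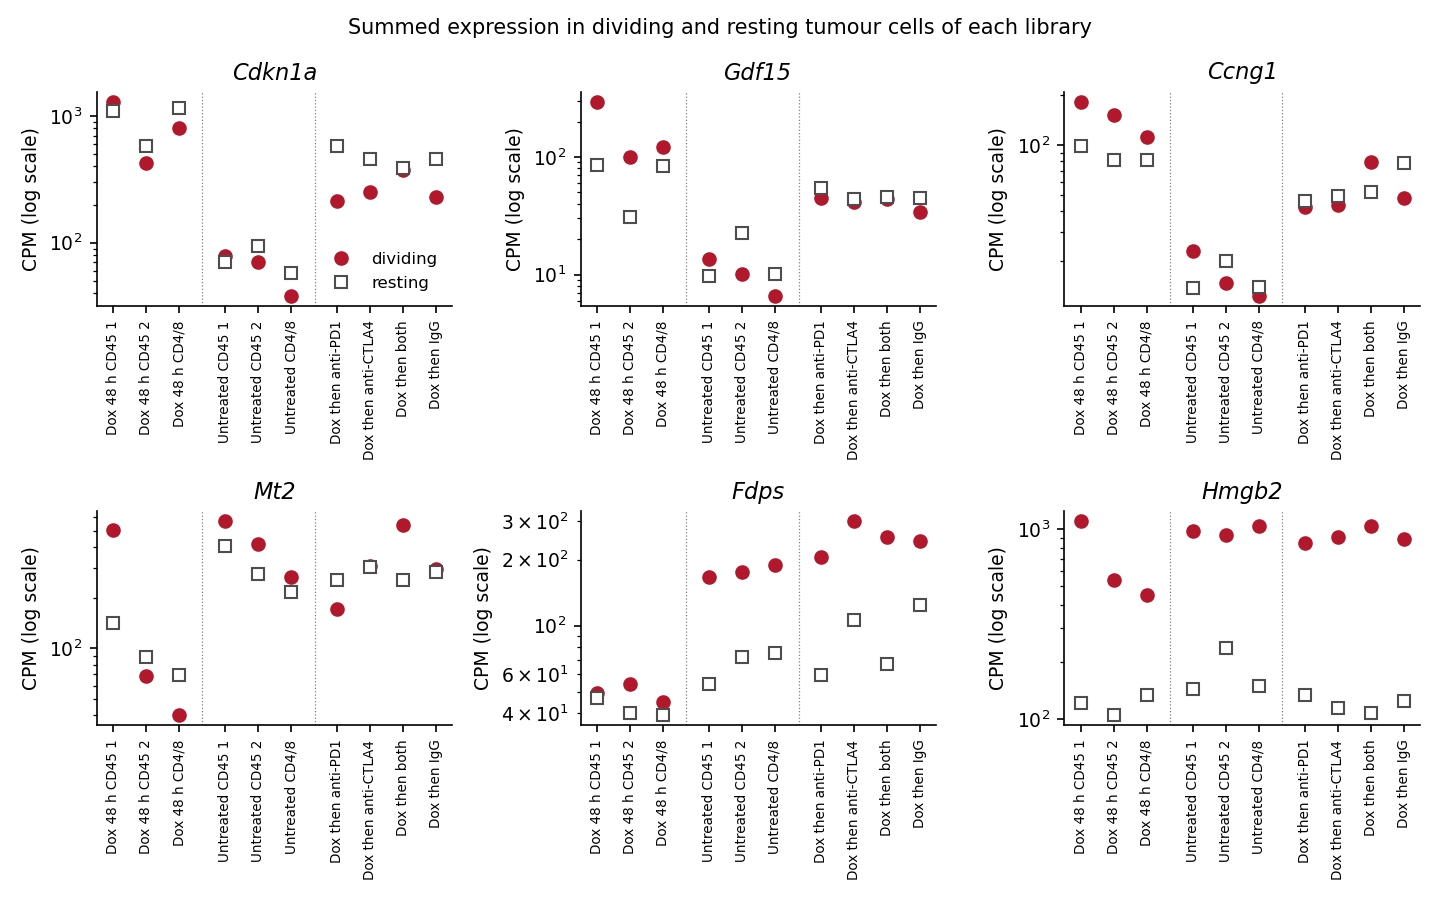
CPM (log axis) of 6 genes in the summed dividing (filled circles) and resting (open squares) tumour cells of each sorted library. In dividing cells Cdkn1a, Gdf15 and Ccng1 are higher in all 3 doxorubicin 48 h libraries than in the untreated ones, Fdps is lower in all 3, and Mt2 and Hmgb2 are lower in the 2 fitted libraries and not in the library of 3 cells.

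Metallothioneins, small proteins that bind zinc and copper, had the largest falls among the called genes of at least 50 CPM on average. Mt2 was at 505, 68.6 and 40.1 CPM after doxorubicin, against 571.1, 414 and 267 CPM untreated, with a log2 change of -2.85 (SE 0.245, edgeR adjusted p = 0.00434). Mt1 was at 1129, 236 and 185 CPM after doxorubicin, against 1591, 1239 and 889 CPM untreated, with a log2 change of -2.50 (SE 0.220, edgeR adjusted p = 0.00466). The library with 3 cells lay among the untreated ones for both genes. Fabp5, a fatty acid-binding protein, was at 281, 99.5 and 159 CPM after doxorubicin, against 769, 527 and 518 CPM untreated, without overlap (log2 change -2.30, edgeR adjusted p = 0.021). Fabp5 was at 518, 756 and 296 CPM in the Ptprc-positive cells after doxorubicin. Gpx2, a glutathione peroxidase of epithelia, was at 35.1, 41.4 and 42.8 CPM after doxorubicin, against 193, 112 and 114 CPM untreated (log2 change -1.72, edgeR adjusted p = 0.044). Resting cells had Fabp5 at 656, 125 and 141 CPM after doxorubicin, against 206, 443 and 351 CPM untreated. Gpx2 there was at 348, 50.6 and 39.5 CPM, against 41.7, 145 and 96.3 CPM, and both genes overlapped between the groups. Csrp2, Col9a1, H1fx, Psat1 and Folr1 also fell, by 1.53 to 2.10 on the log2 scale. Psat1 encodes an enzyme of serine synthesis, Folr1 a folate receptor and H1fx a linker histone.

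Ltf had the largest rise among the called genes of at least 50 CPM on average. It encodes the iron-binding milk protein lactoferrin and was at 203, 1332 and 457 CPM after doxorubicin, against 14, 10.4 and 20.9 CPM untreated. The groups were far apart, and the log2 change was 5.77 (SE 0.543, edgeR adjusted p = 0.0103). Csn3, another milk protein gene, was at 5351, 1216 and 3544 CPM after doxorubicin, against 2042, 3395 and 3654 CPM untreated, with full overlap. Csn1s1, a casein, was at 0, 180 and 82.0 CPM after doxorubicin, against 21.1, 42.7 and 14.7 CPM untreated, with the library of 3 cells lowest (log2 change 2.44, edgeR adjusted p = 0.0131). Wfdc2, a secreted protein of epithelia, was at 70.1, 405 and 418 CPM after doxorubicin, against 39.7, 38.4 and 94.9 CPM untreated, and at 928 CPM in the 13 cells with both antibodies. Slpi, a secreted protease inhibitor, was at 21.0, 223 and 97.9 CPM after doxorubicin, against 27.2, 21.3 and 33.9 CPM untreated. Its level in the Ptprc-positive cells was 795, 619 and 36.5 CPM after doxorubicin and 55.5, 64.7 and 21.0 CPM untreated. The part of RNA from those cells was not tested. Gas6, a ligand of the TAM receptors, and Bhlhe41, a circadian repressor, rose by 2.58 and 2.79 on the log2 scale. Of the 188 called genes, 141 were at least as high in the dividing cells as in the Ptprc-positive cells of the same libraries, 101 of them higher and 40 lower after doxorubicin.

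Among the cells that passed the threshold, few cell cycle genes passed the test. Of the 54 G2/M genes, 2 rose and 2 fell, beside 1.2 and 0.411% of all genes tested. In the list 4 had a change above 0, with a median log2 change of -0.65. At an unadjusted p of 0.05 there were 36, of which 3 were above 0. The 2 that fell became 5 by DESeq2, 20 without the filter on low counts and 0 at 5 UMIs of Mki67 and Top2a. Hmgb2, a chromatin protein of dividing cells, was at 1108, 541 and 451 CPM after doxorubicin, against 975, 938 and 1040 CPM untreated, and fell by 1.04 on the log2 scale (edgeR adjusted p = 0.0432), with the library of 3 cells above the untreated ones. Tacc3, a spindle protein, also fell (log2 change -1.14, edgeR adjusted p = 0.0467). Ckap2, another spindle protein, was at 189, 68.6 and 74.3 CPM after doxorubicin, against 31.4, 31.5 and 28.9 CPM untreated, and rose (log2 change 1.18, edgeR adjusted p = 0.0365). Ube2c and Cdk1 did not pass (log2 changes -0.32 and -0.60, edgeR adjusted p = 0.481 and 0.258). Of the S phase list, 0 of 42 genes passed (15 at an unadjusted p of 0.05, 0 by DESeq2) and 4 had a change above 0 (median -0.43), with Pcna, the replication clamp, at a log2 change of -0.24. The spindle checkpoint list had 0 of 25 called (7 unadjusted, 0 by DESeq2) and the DNA repair list 0 of 30 (0 unadjusted, 0 by DESeq2). In the list of cyclins and inhibitors, Cdkn1a rose and Cdkn3 fell, while Ccnd1, which encodes cyclin D1, did not pass (log2 change 0.53, edgeR adjusted p = 0.223).

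Psrc1, a spindle gene that p53 is known to regulate, changed more in resting cells. In dividing cells it was at 119, 125 and 113 CPM after doxorubicin, against 44.0, 43.5 and 52.2 CPM untreated (log2 change 1.29, SE 0.194, edgeR adjusted p = 0.0255). In resting cells it was at 125, 171 and 115 CPM after doxorubicin, against 12.4, 16.8 and 19.8 CPM untreated (log2 change 2.90, edgeR adjusted p = 0.00235). The 2 changes differed (log2 difference -1.59, edgeR adjusted p = 0.0151). That call was lost without the second doxorubicin CD45-sorted library, without the untreated CD4/8-sorted library, without cells holding a T cell or myeloid UMI and without cells over 40000 UMIs. DESeq2 gave adjusted p-values for 1036 genes of this comparison, and Psrc1 was not among them. Over all genes, 14 of 12312 (0.114%) differed between dividing and resting cells in this way, 7 in each direction (0.0569%). That count was 3 without the untreated CD4/8-sorted library, 5 and 7 without the second doxorubicin and the second untreated CD45-sorted library, 44 without the first untreated CD45-sorted library and 62 without the doxorubicin CD4/8-sorted library. In all 54 genes were called in both states, each in the same direction, 28.7% of those called in dividing cells and 43.2% of those called in resting cells.

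**Figure D5:**
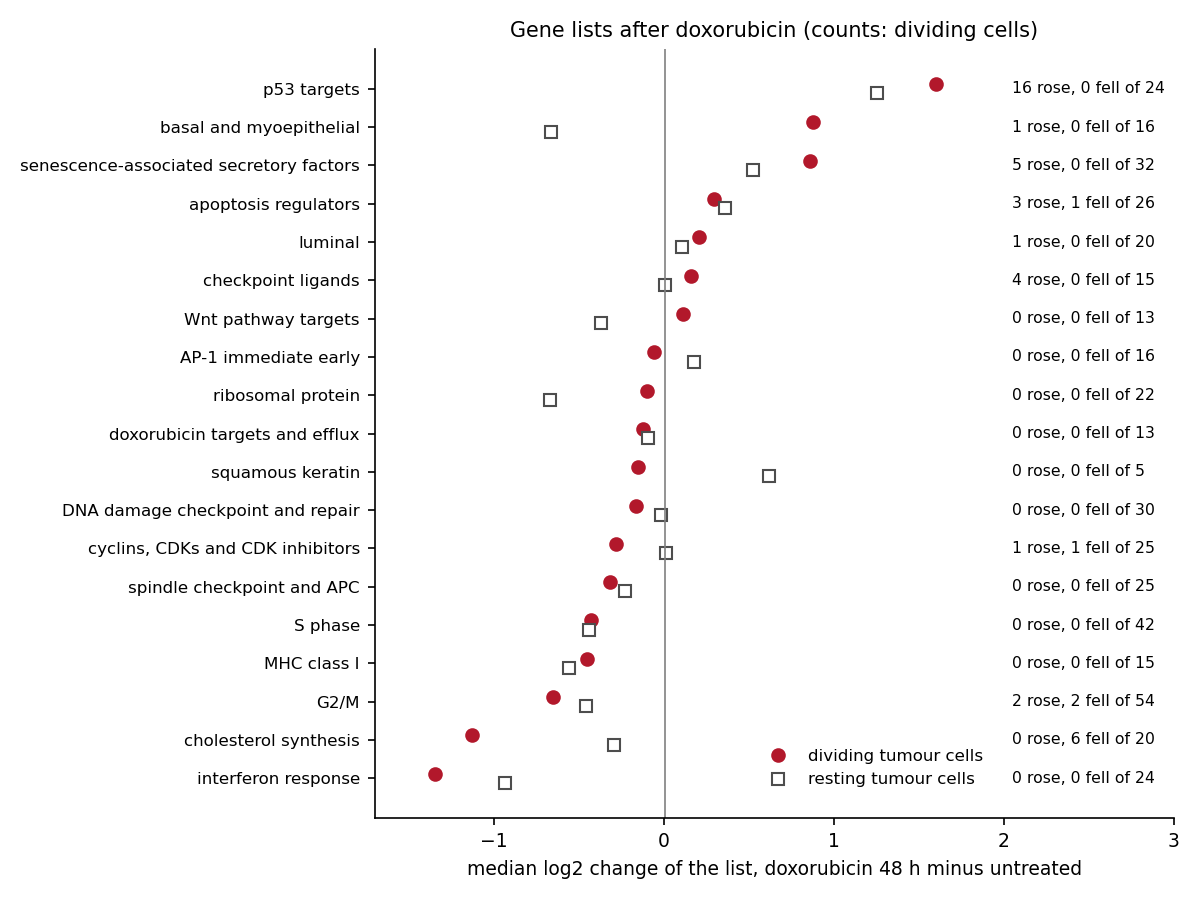
Median log2 change after doxorubicin (horizontal axis) of each gene list in dividing (filled circles) and resting (open squares) tumour cells, with the counts of genes that rose and fell in dividing cells at the right and the median of all genes as a line. The p53 targets have a median of 1.60 in dividing cells, the cholesterol list -1.13 and the interferon list -1.35.

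Of 15 checkpoint ligand genes tested, through which tumour cells meet the immune system, 4 rose and 0 fell, beside 1.2% of all genes that rose. They were Lgals3, Spp1, Cd200 and Vtcn1. Lgals3, a galectin, was at 56.1, 187 and 253 CPM after doxorubicin, against 40.4, 45.3 and 59.0 CPM untreated, where the library of 3 cells fell among the untreated ones (log2 change 2.06, edgeR adjusted p = 0.00466). After doxorubicin, both Spp1 and Lgals3 were higher in the Ptprc-positive cells than in the dividing cells. Spp1 was at 1408, 1802 and 409 CPM in Ptprc-positive cells after doxorubicin, against 209, 161 and 123 CPM untreated. Lgals3 was at 1005, 1469 and 431 CPM there, against 1136, 1255 and 457 CPM untreated, with overlap. Cd274, which encodes the PD1 ligand PD-L1, was at 0, 1.85 and 3.19 CPM after doxorubicin, against 4.51, 19.3 and 2.64 CPM untreated, with overlap and no call (log2 change -1.24, edgeR adjusted p = 0.633). Cd80 was at most 1.24 CPM in any sorted library's dividing cells and was too low to test. MHC class I genes gave 0 of 15 called (6 unadjusted, 4 by DESeq2, all lower), with a median of -0.45. S100a8, a neutrophil gene, also rose in the dividing cells (log2 change 3.46, edgeR adjusted p = 0.0127), where neutrophil markers summed to 2.17, 0.96 and 1.32 UMIs per 10000 after doxorubicin and 0.50, 0.57 and 0.27 untreated; in Ptprc-positive cells they summed to 309, 226 and 11.1 after doxorubicin and 19.2, 22.5 and 5.44 untreated.

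The interferon response list gave 0 of 24 called (4 unadjusted, 1 by DESeq2), with a median log2 change of -1.35 and 2 genes above 0. It summed to 4.28, 19.2 and 24.1 UMIs per 10000 in dividing cells after doxorubicin, against 28.7, 56.6 and 25.6 untreated. The groups did not overlap, though the CD4/8-sorted libraries were nearly equal. In the later arms the sum was 23.1 with anti-PD1, 98.3 with anti-CTLA4 and 95 with both antibodies, against 75.4 with IgG, and the anti-PD1 arm lay in the range of the untreated and 48 h libraries while the other arms lay above it. Iigp1, an interferon-induced GTPase, followed the same order, with 65.5, 1328 and 775 CPM in these antibody arms and 502 CPM with IgG. Each arm is 1 library and was not tested.

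Few lineage genes passed the test. The luminal list had 1 of 20 called, Aldh1a3, with a median of 0.21. At an unadjusted p of 0.05 it had 7, all above 0, and DESeq2 called 3, all higher. The basal list had 1 of 16 called, Tagln, at 0, 47.0 and 56.0 CPM after doxorubicin, against 6.27, 5.78 and 8.13 CPM untreated. This list had 6 at an unadjusted p of 0.05, 5 of them above 0, and 2 called by DESeq2, both higher. Its median was 0.88 in dividing cells and -0.66 in resting cells, and 0 of its 16 genes differed between the states (1 unadjusted, and 0 of the 1 with an adjusted p by DESeq2). Krt14, a basal keratin, was at 0, 202 and 80.2 CPM after doxorubicin, against 15.6, 3.78 and 70.0 CPM untreated, and did not pass (log2 change 2.66, SE 1.25, edgeR adjusted p = 0.447). Wnt pathway targets had 0 of 13 called (3 unadjusted, 0 by DESeq2), with Axin2, a feedback target of Wnt, at a log2 change of 1.29 (edgeR adjusted p = 0.157). Wnt1 itself was at most 3.77 CPM in the dividing cells of any sorted library. Of 32 secretory genes linked to senescence 5 rose, Gdf15, Spp1, Igfbp7, Ccl20 and Cxcl3. Ccl20 rested on 10 and 32 UMIs in the fitted doxorubicin libraries and Cxcl3 on 8 and 42. Igfbp7 and Ccl20 were at 0 in the library of 3 cells. Cxcl3 was at 902, 654 and 29.8 CPM in the Ptprc-positive cells after doxorubicin, and the part of RNA from them was not tested. Of 26 apoptosis regulators Bax, Bbc3 and Pmaip1 rose and Bok fell. Over all genes tested 1.2% rose and 0.411% fell.

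Which tumour cells were called dividing was also read by keratin, a split chosen after the shares were known. Krt5 and Krt14 mark basal cells. Each cell of at least 3000 UMIs was thinned to that depth and called dividing with 1 UMI of Mki67 and Top2a. In the second doxorubicin CD45-sorted library, 6 of 29 cells with a Krt5 or Krt14 UMI were dividing (20.7%, exact interval 7.99 to 39.7%), against 10 of 169 cells without (5.92%, 2.87 to 10.6%). In the doxorubicin CD4/8-sorted library it was 3 of 125 (2.40%) against 42 of 1164 (3.61%). In the first doxorubicin CD45-sorted library it was 0 of 9 against 2 of 52. The doxorubicin libraries thus did not share a direction. In untreated libraries the share was 21.2% of cells with these keratins against 25.2% without in the first CD45-sorted library, 18.2% against 24.2% in the CD4/8-sorted library, and 1 of 2 cells against 31 of 92 (33.7%) in the second CD45-sorted library.

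The pooled table of unsorted tumour cells had 2 barcode sets with no label that says which tumour each came from, so they were not set against each other or against the sorted libraries. These tumours grew in female wild-type C57BL6/j mice of 6 to 8 weeks and were near 200 mm3, untreated or 48 h after the same doxorubicin course. In set 1, 15 of 669 tumour cells were dividing (2.24%, interval 1.26 to 3.67%), and in set 2, 126 of 650 (19.4%, 16.4 to 22.6%). Cdkn1a was seen in 13 of 15 thinned dividing cells of set 1 (86.7%) and in 7 of 124 of set 2 (5.65%).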

How the data were processed

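Tumours were dissociated and CD45 or CD4/8 cells taken magnetically, per the labels' protocols. The authors deposited whole-number UMI counts per gene and cell, which the file headers credit to Cell Ranger 6.0.0 and a GRCm38 reference. The sorted matrices carry no gene names, so rows were named by the gene order of the pooled table, which has the same 32285 rows. Row totals correlated at 0.954 to 0.984 across genes, against at most 0.354 when shifted. Depth was 16908180 to 93748407 UMIs per sorted library.

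Cells were filtered as described above, in Python 3.11.15 (numpy 2.4.6, pandas 2.3.3, scipy 1.17.1, matplotlib 3.10.9). Counts were summed per library over at least 10 cells and tested in R 4.3.3 with edgeR 4.0.16 (TMM, filterByExpr, robust quasi-likelihood, two-sided, Benjamini-Hochberg, called at 0.05), with DESeq2 1.42.0 as an alternative. The interaction fit took the library as a block. Intervals are exact binomial for shares and Newcombe's for differences. On simulated counts the fit recovered 79% of genes changed by 2 log2 units and 21% of those changed by 1 in dividing cells, where 8.26% of calls were unchanged genes.

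Named genes were the 10 largest rises and falls among called genes at 50 CPM or more without overlap, the 3 highest members of each list, 15 fixed genes, and the members called in a list, which were added after their values were seen. The members and the 25 lists were chosen with earlier results of these data known. The T cell comparison, the keratin split, the Cdkn1a shares and the motifs were chosen after seeing the data. The 12 columns of a bulk table that match no sample, and 10 ATAC samples, were not used here. Some called genes of the cholesterol list are not reported here.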

Additional observations from a re-analysis of the deposited data

Results flagged for a closer look

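For 6 named genes, the change after doxorubicin in dividing tumour cells differed from that in resting tumour cells of the same libraries by edgeR's quasi-likelihood interaction test with Benjamini-Hochberg adjustment. The difference, dividing minus resting, was 1.53 for Dbndd2 (adjusted p = 0.0169), 1.52 for Wfdc2 (adjusted p = 0.0151), 1.30 for Nupr1 (adjusted p = 0.0437) and 1.25 for Cryab (adjusted p = 0.0433) on the log2 scale. It was -1.64 for Gm42047 (adjusted p = 0.0116) and -1.59 for Psrc1 (adjusted p = 0.0151). Dbndd2 was at 202 and 127 CPM in dividing cells of the fitted doxorubicin libraries and 47.5, 54.2 and 49.5 CPM in untreated ones, while resting cells had 98.5 and 88.7 CPM after doxorubicin and 71.5, 85.3 and 71.0 CPM untreated. Nupr1, a stress-induced chromatin protein, was at 133 and 132 CPM in dividing cells after doxorubicin, against 19.2, 20.2 and 18.3 CPM untreated, and at 7.01 CPM in the library of 3 cells that was left out of the fit. Gm42047 did not pass in dividing cells (log2 change 0.55) and rose by 2.30 in resting cells. The calls of all 6 were lost without the second doxorubicin CD45-sorted library and without the untreated CD4/8-sorted library. They were also lost without cells holding a T cell or myeloid UMI, and 5 of the 6 were lost without cells over 40000 UMIs. DESeq2 gave an adjusted p for 1 of the 6, Wfdc2, which passed. On simulated counts 17.1% of the calls of this interaction fit were unchanged genes.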

How the results depend on the processing

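The difference in the share of dividing cells kept its sign in all 12 definitions, from -10.6 to -34.6 points, and was -26.0 to -30.2 points with single libraries left out. In the CD45-sorted libraries alone it was -26.6 points (exact permutation, p = 0.333, the smallest possible). With the replicate block it was -27.7 (exact permutation, p = 0.25, the smallest possible). Replicate numbers pair only the CD45-sorted libraries, whose deviations correlated at 0.166 over 2889 genes, so pairing is not established.

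The 188 genes called in dividing cells became 890 without a filter on low counts, 323 with DESeq2, 93 in the CD45-sorted libraries, 92 at 5 UMIs, 103 without cells holding a T cell or myeloid UMI and 68 without cells over 40000 UMIs, the last chosen after seeing the data. Leaving out libraries gave 6 (without the second doxorubicin CD45-sorted library) to 449 (without the second untreated CD45-sorted library). The replicate block gave 171. The 16 p53 targets that rose became 2 without the second doxorubicin CD45-sorted library, 5 without cells holding a T cell or myeloid UMI, 7 without the untreated CD4/8-sorted library and 9 of 17 without cells over 40000 UMIs, with a median of 1.26 to 1.88 throughout. In the CD45-sorted and left-out fits with 1 doxorubicin library, that library is assumed to vary like the untreated ones.

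The 14 genes of the interaction became 185 without the filter, 32 with DESeq2, 6 at 5 UMIs, 2 without cells holding a T cell or myeloid UMI, 2 without cells over 40000 UMIs and 0 with the replicate block, so the calls of Dbndd2, Wfdc2, Nupr1, Cryab, Gm42047 and Psrc1 are lost there too. The count was 3 to 62 with single libraries left out. With the IgG arm the excess over 48 h, 26.9 points, was 14.5 and 10.2 after thinning with 1 and 2 UMIs, 13.3 per 10000 UMIs, 20.2 without cells holding a T cell or myeloid UMI and 13.6 without cells over 40000 UMIs. The cause of these shifts was not tested. DESeq2 gave adjusted p-values for 1036 of 20967 genes in the interaction, so its count there covers those genes.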
